A study of Mus musculus with 2 samples.

Results

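The 10 genes described here encode the core of transforming growth factor beta (TGF-β) signalling, namely the ligands *Tgfb1*, *Tgfb2* and *Tgfb3*, the receptors *Tgfbr1*, *Tgfbr2* and *Tgfbr3*, the signalling SMADs *Smad2* and *Smad3* and the inhibitory SMADs *Smad6* and *Smad7*. They were taken by symbol from a table of 22095 genes, and all 10 were found in it, each alone in its locus. The table came from C2C12 cells, a mouse myoblast line, that received either a negative control siRNA (siNC) or an siRNA against *Malat1* (si*Malat1*), a nuclear long non-coding RNA. The cells were grown in 10% FBS and moved to differentiation medium (DM) with 2% horse serum, for 2 days by the paper's account. Polyadenylated RNA was sequenced from 1 library per siRNA. With 1 library in each group, no difference below has a replicate check, a standard error or a p-value, and a value describes these libraries only. In whole-culture RNA, fewer cells of a kind and less RNA per cell cannot be told apart.

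TGF-β ligands are secreted in a latent form that is stored in the matrix and released by proteases and integrins. An active ligand brings together the receptor kinases encoded by *Tgfbr2* and *Tgfbr1*, the second of which phosphorylates SMAD2 and SMAD3, and these enter the nucleus with SMAD4 and alter transcription. SMAD6 and SMAD7 are induced by signalling of this family and act back on it as brakes. In myoblasts TGF-β is known for holding back differentiation, and SMAD3 is known to hinder the activity of MyoD and MEF2 factors, the regulators that turn on muscle genes.

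The check of the knockdown came first. *Malat1* had 41.8 FPKM (fragments per kilobase, corrected for sequencing depth) in siNC against 34.2 in si*Malat1* (log2 ratio -0.29). Among the sequenced RNA it was thus lower but far from absent. According to the paper, the end of this RNA does not arise by canonical cleavage and polyadenylation. How well libraries of polyadenylated RNA measure the depth of the knockdown was not tested. The paper also reports RT-qPCR of the knockdown in the samples it sequenced. Throughout, the log2 ratio is that of si*Malat1* over siNC after 0.1 FPKM was added to each value, which understates the difference of low genes, and paired values give siNC first and si*Malat1* second. Of 8 genes of skeletal muscle identity, 6 were higher after the knockdown. Their list had a median log2 ratio of 0.57, and all genes that averaged 1 FPKM or more had one of -0.04. On the higher side 5 of the 8 passed 1.2-fold (8.74% of all genes did) and 4 passed 1.5-fold (2.29% of all genes). These 4 were the myogenic factors *Myog* (525 and 857 FPKM) and *Mef2c* (5.81 and 11.1 FPKM), the embryonic myosin *Myh3* (304 and 531 FPKM) and *Acta1*, actin of the sarcomere (3326 and 5199 FPKM), while *Myod1* (113 and 95.8 FPKM in siNC and si*Malat1*) and *Myf5* (23.8 and 17.3 FPKM) were lower. None of the 7 leukocyte, 6 endothelial and 6 adipocyte markers had a mean of 1 FPKM. The summed levels of these lists ran from 0.0186 to 1.17 FPKM in siNC and from 0 to 0.802 FPKM in si*Malat1*, and the adipocyte gene *Adipoq* and the macrophage gene *Emr1* were listed at 0 in both, which in this table may also be an estimate that failed. Of 6 bone and cartilage markers 2 passed 1 FPKM, *Bglap* (4.76 and 5.77 FPKM) and *Dmp1* (4.03 and 3.49 FPKM). The part of the muscle genes' difference in the values below was not tested.

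Starting with the regulatory sequence, promoter windows came from RefSeq (GRCm38.p6, 250 bases before to 50 after a transcription start). They were read for 6 of the 10 members, in 7 windows since *Tgfbr1* has 2. Shown here are 150 bases of each of 4 windows, from 120 bases before the start to 30 after it, 5′ to 3′ on the strand of the gene. *Tgfb2*, *Tgfbr2* and *Smad6* are shown because they were the members lower by at least 1.2-fold in si*Malat1*, and *Tgfb1* as a ligand whose level hardly differed. Capitals mark the motifs searched on both strands.
Tgfb1 (chr7:25686882-25687031, plus strand): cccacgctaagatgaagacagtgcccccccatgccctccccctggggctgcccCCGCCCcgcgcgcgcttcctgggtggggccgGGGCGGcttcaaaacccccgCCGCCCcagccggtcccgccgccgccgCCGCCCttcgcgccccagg
Tgfb2 (chr1:186705960-186706109, minus strand): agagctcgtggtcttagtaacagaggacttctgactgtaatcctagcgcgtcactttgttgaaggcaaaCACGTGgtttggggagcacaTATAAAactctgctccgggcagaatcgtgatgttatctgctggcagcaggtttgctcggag
Tgfbr2 (chr9:116175334-116175483, minus strand): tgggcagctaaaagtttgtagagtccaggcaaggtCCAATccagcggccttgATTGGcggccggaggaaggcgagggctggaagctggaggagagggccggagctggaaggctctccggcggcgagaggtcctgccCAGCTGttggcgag
Smad6 (chr9:64022030-64022179, minus strand): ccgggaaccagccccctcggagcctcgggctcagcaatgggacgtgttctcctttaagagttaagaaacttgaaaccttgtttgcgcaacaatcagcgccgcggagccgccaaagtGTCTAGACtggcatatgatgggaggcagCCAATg

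These windows differ in what they hold. The *Smad6* window has GTCTAGAC, the palindromic SMAD binding element, which begins 4 bases before the start and is present in 0.213% of the 32851 mouse windows of the same length, and in 1 of the 7 member windows. *Tgfb2* has a TATA box (TATAAA, in 13.6% of all windows) that begins 31 bases before the start, and upstream of it the E-box CACGTG (7.15%) at 51 bases. *Tgfbr2* carries CCAAT boxes (CCAAT, 37.4%) that begin 85 and 68 bases before the start and, in the first transcribed bases, the E-box CAGCTG (16.3%), the form to which MyoD is known to bind. CCAAT is in 5 of the 7 member windows, those of *Tgfb2* and *Smad6* among them. Counted over the whole windows, *Tgfb1* holds 6 GC boxes (GGGCGG, 35.7%), *Smad6* has 4, and *Smad3* and 1 window of *Tgfbr1* have 2 each. The GC boxes of *Smad6*, some of those of *Tgfb1* and the CCAAT box of *Tgfb2* begin upstream of the bases shown. CAGACA, a shorter SMAD motif (21%), lies farther upstream in *Tgfb2* and in 1 window of *Tgfbr1*. TGACTCA, the AP-1 site (5.2%), is in 0 of the 7. The motifs do not overlap each other in these windows. No window of *Tgfb3*, *Tgfbr3*, *Smad2* or *Smad7* was read, so the counts of member windows do not cover these genes. A filter left any window on chromosome 18, where *Smad2* and *Smad7* lie, out of the member windows. Whether GTCTAGAC is also near the start of these 2 genes was therefore not read. A match is a stretch of letters and was not tested as a binding site in these cells.

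Of the ligands, *Tgfb3* stood higher in si*Malat1* than in siNC while *Tgfb2* stood lower and *Tgfb1* was close to level. *Tgfb3*, on chromosome 12 of mm9 from 87397693 to 87419991, had 61.1 FPKM in siNC against 81.3 in si*Malat1*, which is 1.33-fold higher (log2 ratio 0.41). It was the only member of the 10 on the higher side as the FPKM were deposited. Its log2 ratio was above those of 97.6% of the 500 genes closest in abundance (mean FPKM over both libraries). *Tgfb2*, on chromosome 1 from 188447065 to 188529871, had 10.1 FPKM in siNC against 7.93 in si*Malat1*, 1.27-fold lower (log2 ratio -0.34), and 9.0% of the 500 genes closest in abundance lay below it. *Tgfb1*, the isoform best known from wounds and fibrosis, lies on chromosome 7 from 26472021 to 26490015 and had 56.7 and 54.6 FPKM (log2 ratio -0.05), with 37.0% of the genes of like abundance below it.

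The makeup of the ligand pool therefore differed between the libraries. *Tgfb3* made up 47.8% of the summed ligand FPKM in siNC and 56.5% in si*Malat1*, *Tgfb1* 44.3% and 38.0%, and *Tgfb2* 7.89% and 5.52%. The ratio of *Tgfb3* to *Tgfb1* was 1.08 in siNC and 1.49 in si*Malat1*, and that of *Tgfb3* to *Tgfb2* was 6.06 and 10.2. A ratio inside a library does not depend on how the libraries are scaled to each other, so the sign of these differences holds under every scaling tried. The ligands summed to 128 FPKM in siNC against 144 in si*Malat1*, and of the 3 genes only *Tgfb3* was higher.

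**Figure D1:**
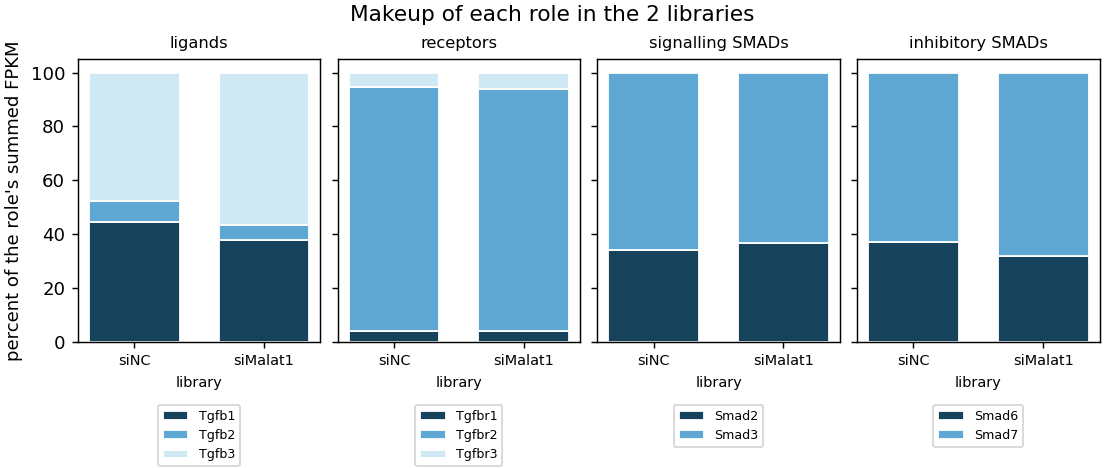
Stacked bars give the percent of the summed FPKM of each role (y axis) held by each of its genes in the siNC and the si*Malat1* library (x axis, 1 library each). *Tgfb3* holds 47.8% of the ligand sum in siNC and 56.5% in si*Malat1*, while *Tgfbr2* holds 90.9% and 89.6% of the receptor sum.

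All 3 receptors were on the lower side in si*Malat1* as deposited, though *Tgfbr3* turned with the median of all genes set to 0, and *Tgfbr2* was the 1 past 1.2-fold. *Tgfbr2*, the kinase that binds the ligand first, was the most abundant of the 10 members, with 137 FPKM in siNC against 112 in si*Malat1*, 1.22-fold lower (log2 ratio -0.29). It lies on chromosome 9 from 115996813 to 116084481. In the ranking among genes of like abundance only 4.0% lay below it, although the ratio came under 1.2-fold when the median of all genes was set to 0 (-0.25) and under upper quartile scaling (-0.26). *Tgfbr1*, the partner kinase that passes the signal to the SMADs, lies on chromosome 4 from 47366177 to 47427796. Its level was 5.81 FPKM in siNC against 5.29 in si*Malat1* (log2 ratio -0.13), and 41.6% of its neighbours in abundance lay below it. *Tgfbr3*, which encodes betaglycan, a coreceptor that presents ligand and has no kinase, had 7.96 and 7.82 FPKM, and its log2 ratio of -0.03 turned to 0.0093 with the median of all genes set to 0. It lies on chromosome 5 from 107535589 to 107718614.

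The receptor genes were far apart in level. FPKM are per length of transcript, so a rough comparison between genes is possible, though the estimate of a single gene in this table may fail. By these values *Tgfbr2* stood 23.6 times as high as *Tgfbr1* in siNC and 21.3 times as high in si*Malat1*. Ligands summed to 0.846 times the receptors in siNC and to 1.15 times in si*Malat1*, 1.35-fold more. This ratio rests on *Tgfb3* and *Tgfbr2*, the largest terms of the sums. With a geometric mean in place of the sum, which weights the genes of a role equally, the ratio was 1.76 in siNC and 1.96 in si*Malat1*, 1.11-fold more.

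**Figure D2:**
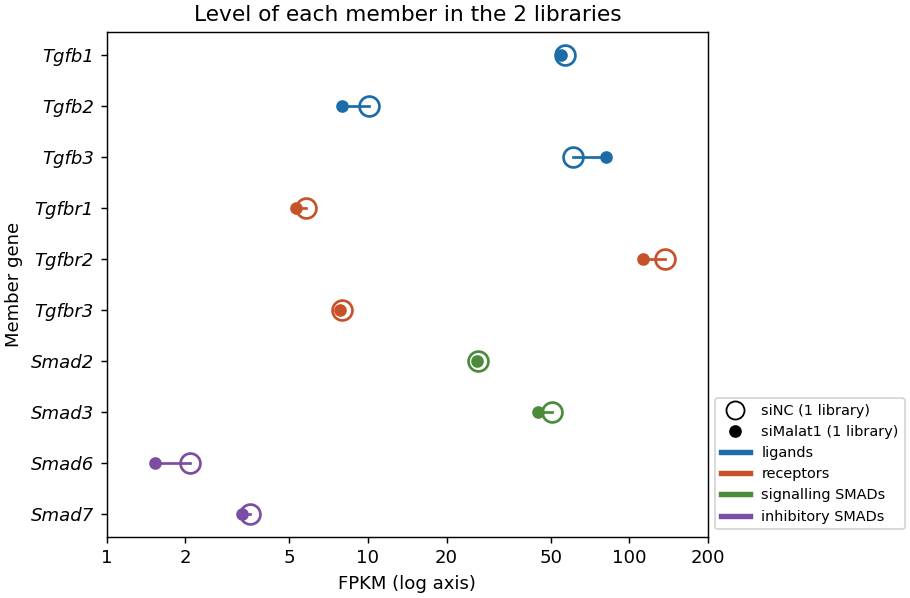
Levels of the 10 members in FPKM (x axis, log scale) for siNC (open circles) and si*Malat1* (filled circles), 1 library each, coloured by role. *Tgfbr2* is the highest at 137 and 112 FPKM and *Smad6* the lowest at 2.08 and 1.53 FPKM, and the order of the 10 genes is the same in both libraries.

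The signalling SMADs showed small differences. *Smad3*, on chromosome 9 from 63494574 to 63605801, had 50.7 FPKM in siNC against 44.7 in si*Malat1*, 1.13-fold lower (log2 ratio -0.18), and 14.8% of the genes of like abundance lay below it. *Smad2*, on chromosome 18 from 76401579 to 76465385, had 26.3 and 26.1 FPKM, and the sign of its log2 ratio of -0.0090 turned with the scaling between the libraries. *Smad3* stood at 1.93 times the level of *Smad2* in siNC and at 1.71 times in si*Malat1*.

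The inhibitory SMADs were the lowest members in level. *Smad6*, which acts mainly as a brake on bone morphogenetic protein (BMP) signals, had 2.08 FPKM in siNC against 1.53 in si*Malat1*, 1.33-fold lower. Its log2 ratio of -0.42 was the lowest of the 10, but at this level ratios scatter widely, and 13.2% of its neighbours in abundance lay below it. Its locus, on chromosome 9 from 63800883 to 63869866, is separated from that of *Smad3* by 195081 bases. *Smad7*, the brake on the TGF-β receptor itself and a direct target of SMAD3, had 3.54 FPKM in siNC against 3.30 in si*Malat1* (log2 ratio -0.10), with 43.4% of its neighbours in abundance below it. It lies on chromosome 18 from 75527019 to 75555588. Together the inhibitory SMADs had 0.0730 times the FPKM of the signalling SMADs in siNC and 0.0682 times in si*Malat1*, 1.07-fold less.

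**Figure D3:**
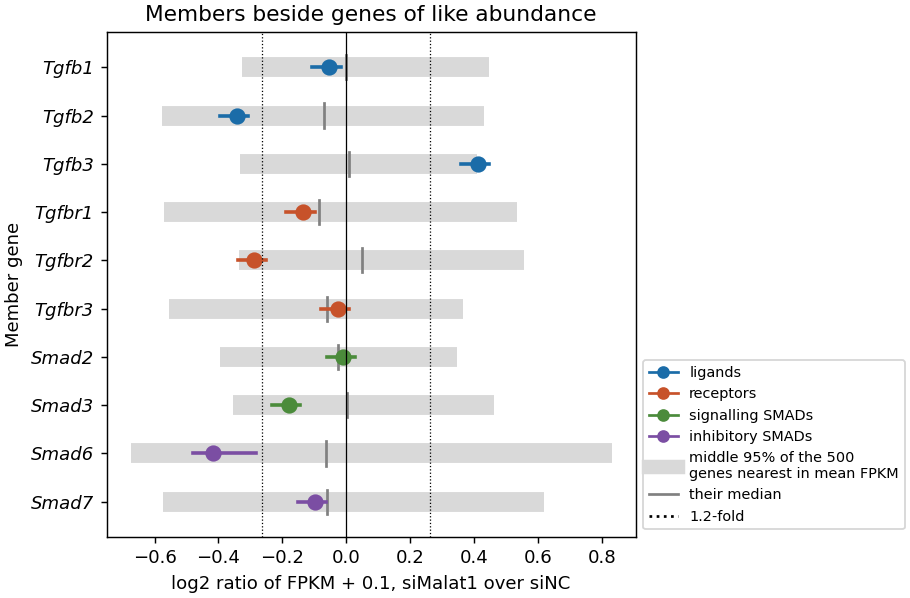
Log2 ratio of FPKM plus 0.1, si*Malat1* over siNC (x axis), for each member (points, coloured by role), with a coloured line for its range over 3 other scalings and 2 other pseudocounts. Gray bars run from the low to the high end of the middle 95% of the 500 genes closest in abundance, and 9 of the 10 points lie within them, with *Tgfb3* at 0.41 just beyond the upper end of its bar. The lines of *Smad2* and *Tgfbr3* cross 0.

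Read over all 10 genes, 9 were lower in si*Malat1* and 1 higher, where 57.4% of the 11099 genes that averaged 1 FPKM or more over the libraries were lower. Setting the median of all genes to 0 left 7 of the 10 on the lower side, and upper quartile scaling left 8. The median log2 ratio of the members was -0.12, and that of all genes -0.04. Past 1.2-fold were 1 member on the higher side, where the share of all genes was 8.74%, and 3 on the lower side, where it was 12.8%. Of all genes past 1.2-fold, 40.5% were on the higher side as deposited, 26.7% with the library sums set equal and 52.6% with the median set to 0. No member passed 1.5-fold in either direction, a difference that 2.29% of all genes reached on the higher side and 1.75% on the lower side. By role, the median log2 ratio was -0.05 for the ligands, -0.13 for the receptors, -0.09 for the signalling SMADs and -0.26 for the inhibitory SMADs.

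Other genes of the pathway were read beside the members, in lists written from textbook knowledge but with earlier results of these data known. The SMADs outside the 10 were on the lower side where their mean reached 1 FPKM, 3 of 3, with a median log2 ratio of -0.14. Of all genes, 57.4% were on that side. *Smad4*, the partner shared by all signalling SMADs, had 32.9 FPKM in siNC against 29.2 in si*Malat1*. *Smad9*, a SMAD of the BMP branch, stood at 0.332 and 0.166 FPKM, too low for the count. Of 11 other receptors of the superfamily, 5 reached the mean of 1 FPKM, and 4 of them were lower, beside 57.4% of all genes. Past 1.2-fold were 0 of the 5, where the share of all genes was 8.74% on the higher side and 12.8% on the lower side. They ranged from *Acvr1b*, an activin receptor (4.19 and 3.79 FPKM, log2 ratio -0.14), to *Bmpr2*, a BMP receptor (14.4 and 15.2 FPKM, 0.07), and *Bmpr1a* was the highest (36.4 and 36.0 FPKM). *Eng*, the coreceptor endoglin, was listed at 0 in both libraries and shares its locus with another gene, so that this 0 may stand for an estimate that failed.

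Among the genes that store and activate latent TGF-β, 11 of the 13 that averaged 1 FPKM or more were lower in si*Malat1*, 4 of them by 1.2-fold (median log2 ratio -0.13), against 57.4% and 12.8% of all genes. These 4 were the latent binding proteins *Ltbp4* (32.7 FPKM in siNC against 22.2 in si*Malat1*, 1.47-fold lower) and *Ltbp3* (145 and 116 FPKM, in a locus shared with another gene) and the plasminogen activators *Plau* (218 and 166 FPKM) and *Plat* (55.1 and 43.5 FPKM). The integrin subunit *Itgb8*, of the integrin that frees active ligand, was on the higher side (1.74 FPKM in siNC, 1.19-fold higher in the knockdown), and the activator thrombospondin *Thbs1* was the most abundant of the list (362 and 331 FPKM). Proteoglycans and other proteins that bind the ligands were split, with 3 of 5 higher and 2 lower, where 57.4% of all genes were lower. Their median log2 ratio was 0.09. Lumican, *Lum*, was 1.38-fold higher (10.3 and 14.3 FPKM), and biglycan, *Bgn*, was the most abundant (1306 and 1387 FPKM). *Vasn*, a membrane protein that traps TGF-β, was lower (46.3 and 39.8 FPKM) and lies in a locus shared with another gene.

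Regulators of the signal inside the cell differed little. Of 21 that averaged 1 FPKM or more, 14 were lower, where 57.4% of all genes were, and 7 higher. The 1 past 1.2-fold was *Pmepa1* (138 FPKM in siNC against 173 in si*Malat1*, log2 ratio 0.33). Of all genes, 8.74% passed that fold on the higher side and 12.8% on the lower side. *Pmepa1* encodes a membrane protein that sequesters receptor SMADs and is itself a TGF-β target. *Ski*, a nuclear corepressor of SMADs, had the lowest ratio of this list (56.3 and 47.1 FPKM, -0.26). *Fkbp1a*, which guards the type I receptor against leaky activity, had the highest mean level over both libraries (165 and 171 FPKM). Among DNA-binding partners and other cofactors of SMADs, 12 of 14 were lower, 7 of them by 1.2-fold (57.4% and 12.8% of all genes). Their median log2 ratio of -0.27 came inside 1.2-fold, at -0.24 to -0.23, under 6 of the 8 alternatives, with the median of all genes set to 0 and under upper quartile scaling among them. At the ends of this list stood *Atf3*, a stress-induced factor (4.53 FPKM in siNC against 9.36 in si*Malat1*, 2.05-fold higher), and *Fos*, a subunit of AP-1 (3.95 and 2.50 FPKM, 1.56-fold lower), while *E2f4*, the most abundant, was level (70.8 and 71.1 FPKM). Genes of the branch that does not pass through SMADs were lower in 8 of 14 cases, beside 57.4% of all genes, and had a median log2 ratio of -0.05. Of these 14, *Map2k6*, a kinase above p38, was lowest in ratio (1.90 and 1.49 FPKM, -0.34). The polarity gene *Pard6a* was highest in ratio (4.49 and 5.14 FPKM, 0.19) and the GTPase *Rhoa* highest in level (254 and 262 FPKM).

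Genes known as targets of TGF-β lay on both sides, in shares near those of all genes. Of 36 listed, 30 averaged 1 FPKM or more, 20 were lower and 10 higher, where 57.4% of all genes were lower, and their median log2 ratio was -0.11 beside -0.04 for all genes. Past 1.2-fold were 4 on the higher side (8.74% of all genes) and 5 on the lower side (12.8% of all genes), and the latter number was 9 with the library sums set equal and 2 with the median of all genes set to 0. The higher ones were *Pmepa1*, the matrix gene *Postn* (2.67 FPKM in siNC against 3.83 in si*Malat1*, log2 ratio 0.51), the cell cycle inhibitor *Cdkn1a* (786 and 1004 FPKM) and the transcription factor *Bhlhe40* (42.7 and 52.9 FPKM). Among the lower ones were the basement membrane collagen *Col4a1* (75.2 and 46.4 FPKM, 1.62-fold lower), the transcription factors *Snai1* (33.8 and 26.4 FPKM) and *Snai2* (27.6 and 23.0 FPKM), and *Id1*, a BMP target (27.0 and 22.3 FPKM). *Acta2*, smooth muscle actin, was the most abundant target (2169 and 2471 FPKM), and *Cdkn2b* and *Tpm1* were listed at 0 in both libraries. *Tpm1* is a tropomyosin gene that muscle cells use heavily and is alone in its locus, so an exact 0 in this table does not show that a gene is silent. Of the 36, 7 also stand in another list, among them *Smad7*, and several answer to other signals as well.

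**Figure D4:**
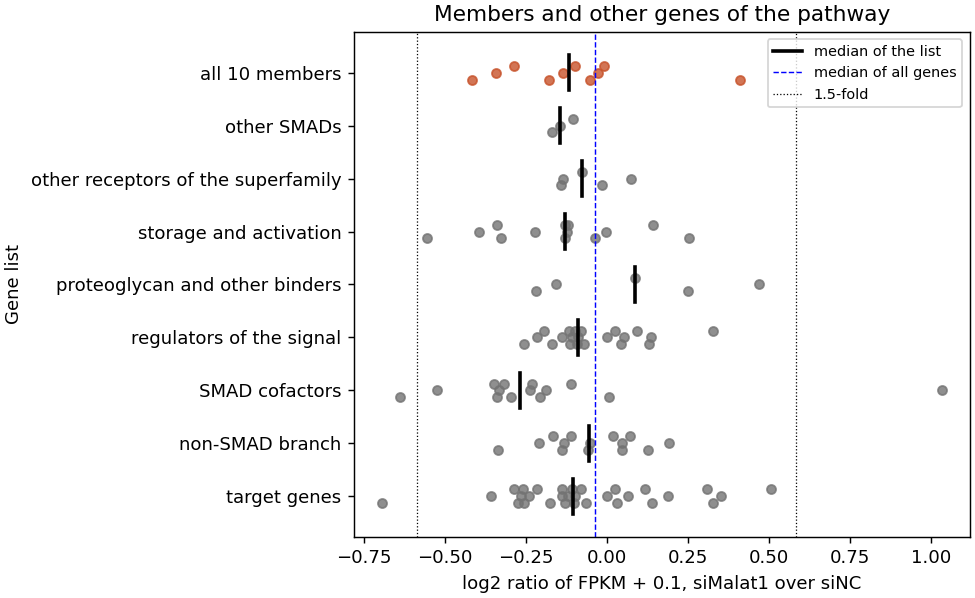
Each point is the log2 ratio of FPKM plus 0.1, si*Malat1* over siNC (x axis), of a gene that averaged 1 FPKM or more, by list (y axis), with a black bar at the median of the list and a blue dashed line at the median of all genes (-0.04). The members run from -0.42 to 0.41 and stay inside the dotted lines at 1.5-fold, which *Atf3*, *Fos* and *Col4a1* cross.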

How the data were processed

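Per the labels and the authors' methods, polyadenylated RNA from 1 siNC and 1 si*Malat1* library of C2C12 cells was sequenced in pairs. The submitters' processing notes name mm9, TopHat2 2.0.9, Cufflinks 2.1.1 and Cuffdiff 2.1.1. The annotation and strandedness are not given in the sources used here, so antisense overlap cannot be separated. The deposited values are the authors' FPKM, with no counts. Columns holding the authors' log fold change and significance call were not used, and Cuffdiff could not be rerun without reads. Among 1937 genes averaging 0.1 FPKM or less, ratios of 457 were equal to 1.09 times a ratio of whole numbers up to 5 (tolerance 0.004 on the natural log scale, median 55.5 at other steps), so a fragment is worth about 1.09 times as much in si*Malat1*, but the absolute depth is unknown and no counting interval is given.

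Log2 ratios were taken after adding 0.1 FPKM. Counts and medians used the 11099 genes above 0 in both libraries averaging at least 1 FPKM, and a call meant 1.2-fold or 1.5-fold. The share of the 500 genes nearest in log mean FPKM with a lower ratio is a description. Locus starts were raised by 1, since 6044 of 16386 single-gene loci then had the RefSeq gene's length, against 414 as given. Promoter windows from RefSeq (GRCm38.p6) were not placed on mm9. The members and lists were chosen with earlier results of these data known, and the motifs after the windows were seen. Genes named were the members, *Malat1*, and from each pathway list (not the muscle and other cell type markers) the genes past 1.5-fold, else the largest in each direction, and the most abundant. A listed target gene is not reported here by name. Genes past 1.2-fold in short counts, *Smad9*, *Eng*, genes listed at 0 and marker genes were named after their values were seen. Python 3.11.15, numpy 2.4.6, pandas 2.3.3 and matplotlib 3.10.9 were used, and the scripts were tested on simulated data.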

Additional observations from a re-analysis of the deposited data

How the results depend on the processing

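Alternatives were pseudocounts of 0.01 and 1 FPKM, setting the library sums equal, setting the median log2 ratio of all genes to 0, upper quartile scaling, a mean of at least 5 FPKM or no filter, and single-gene loci. Before a pseudocount was added, scalings shifted every log2 ratio by -0.05, 0.04 and 0.03 in that order. With 0.1 FPKM added after the scaling, the shift of low genes differed, and *Smad6* went from -0.42 to -0.48 with equal sums. Over the members and roles, 123 values under an alternative kept direction and side of 1.2-fold (where counts, stayed within 1.5 times), and the others follow. The log2 ratio of *Smad2* became 0.027 with the median set to 0 and 0.017 under upper quartile scaling, that of *Tgfbr3* became 0.0093 with the median set to 0, and that of *Tgfbr2* came to -0.25 and -0.26 under these scalings, inside 1.2-fold. The median of the inhibitory SMADs passed 1.2-fold at -0.32 with equal sums and at -0.27 with 0.01 FPKM added. The log2 ratio of ligands over receptors was 0.44 from sums and 0.15 from geometric means. *Tgfb3* ranged from 0.36 to 0.45, *Tgfb2* from -0.40 to -0.31 and *Smad6* from -0.48 to -0.28. Of all genes, 1424 were lower by 1.2-fold as deposited and 2362 with no filter on the mean, where 15080 genes were read, and 970 and 1785 were higher. For 1.5-fold the lower count was 194 as deposited, 77 with 1 FPKM added, 76 with a mean of at least 5 FPKM and 486 with no filter, and the higher count 254, 178, 127 and 543. For the other lists and all genes, 440 values held in the same sense, 34 moved, and the median of the SMAD cofactors came inside 1.2-fold under 6 alternatives (-0.24 to -0.23). No paired analysis was possible because each siRNA has 1 library, and no library could be left out. The absence of counts limits low genes such as *Smad6* most.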
